A study of Mus musculus with 22 samples.

Results

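The regions described here are 1253 short stretches of protein-coding genes that stood in the authors' list of N4-acetylcytidine (ac4C) peaks of db/m mouse kidneys and that met no counterpart in the list of db/db mouse kidneys. They were chosen from a deposited table of 9857 peaks, of which 4948 came from the db/m list and 4909 from the db/db list. A member lay in a protein_coding gene, carried a db/m-list name, had an end minus start of 1000 bases or less, and shared no base with a db/db-list peak on the same strand. These steps left 4568 db/m-list peaks in coding genes, 3124 short peaks among them, and finally the 1253 members, which fell in 1168 genes. The remaining 1871 short db/m-list peaks overlapped a db/db-list peak, and 1234 short coding-gene peaks stood only in the db/db list. Because peak calling used the IP and RNA-seq libraries of these same mice, the choice of members had already used every comparison of db/db with db/m below. All of these comparisons are therefore descriptions, with standard errors but without p-values for members, and no test that was independent of the choice could be made.

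Both genotypes come from the db line. The db/db animals carry no functional copy of the leptin receptor gene and develop obesity with type 2 diabetes, whereas db/m animals keep 1 functional copy and served as nondiabetic controls. Kidneys came from 6 db/db and from 5 db/m animals, each giving an acRIP-seq library, in which fragmented mRNA was pulled down with an antibody against ac4C (IP), and an RNA-seq library of the mRNA without pull-down. The study used male mice, and the age of the mice behind these 22 libraries is not given in the labels. The labels name no treatment for these animals, and each library holds the mixture of cell types in kidney tissue. The labels number the libraries but do not say that each number is a separate mouse, nor that the IP and RNA-seq libraries of 1 number come from the same mouse. Both are assumed here. Without the first the spread between libraries would be technical, and the comparison of IP relative to RNA-seq and the enrichment per mouse rest on the second.

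N4-acetylcytidine is an acetyl group on the base cytidine. In mammals it is written by NAT10, an acetyltransferase of the nucleolus and nucleus that also acetylates ribosomal and transfer RNA, and in messenger RNA it has been linked to stability and translation. The kidney tubule, above all its proximal part, reabsorbs filtered solutes, secretes organic anions and cations, makes glucose and conjugates drugs and steroids, and the genes of these tasks are among the most strongly expressed in the organ. A peak in such data is a stretch where the pulled-down reads exceed what the unselected RNA predicts, so that a call depends on the reads of both libraries.

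Members at transcript starts show where these regions can be read as sequence. Of the 1253 members, 67 covered the whole of the first 50 transcribed bases of a RefSeq transcript of their gene (GRCm38.p6), and 49 of these windows (73.1%) held the letters CCG on the transcript strand, the context in which ac4C is best known from ribosomal RNA and archaea. The same share was 68.8% of 138 windows under shared short peaks, 68.2% of 44 windows under peaks only in the db/db list, and 42.4% of 32817 RefSeq starts of the same length. Only the transcript strand was searched, and a CCG here is a match of letters, not a mapped ac4C. Median GC was 72% in members' windows, 70% and 73% in those of the other sets, and 56% over all starts. The first 30 bases are shown 5' to 3' for the 4 members with the highest mean IP level in db/m mice among those with a CCG in that stretch, CCG in capitals, and for Dctn2, whose IP reads are set against its RNA-seq reads further on and which has none in these 30 bases.
Arhgdia (chr11:120581595-120581624, minus strand): cggaagtcttgtgaccCCGgaagtgaCCGt
Ccdc124 (chr8:70873461-70873490, minus strand): gacacgcgaCCGagCCGgtgCCGggggaag
Pole4 (chr6:82652836-82652865, minus strand): CCGcgcgccacacgtttcgggaggggatgg
Exoc6b (chr6:85069484-85069513, minus strand): atCCGagggcggggtcgcgctgcggggtgc
Dctn2 (chr10:127266262-127266291, plus strand): attccctgtcgctctcaccaatcccagcct

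The Arhgdia start peak held 93.5, 69.6, 108, 101 and 95.7 IP CPM (read counts scaled to equal library totals over all peaks, per 1000000 reads) in db/m mice 1 to 5. The mean was 93.5 ± 14.4 CPM in db/m and 103 ± 26.9 CPM in db/db mice (SD, n = 5 and 6), and the genotypes overlapped. The Ccdc124 start, in a gene for a ribosome-binding protein, held 58.7 ± 20.6 CPM in db/m and 43.1 ± 7.14 CPM in db/db mice, again with overlap. The Pole4 start, in a gene for a small subunit of DNA polymerase epsilon, held 29.1 ± 9.01 CPM in db/m and 14.5 ± 8.16 CPM in db/db mice, and the Exoc6b start, in a gene for an exocyst subunit, held 22.3 ± 13.1 CPM in db/m and 15.1 ± 4.77 CPM in db/db mice. Some start peaks that stood only in the db/m list thus had IP levels in db/db mice within the spread of the db/m mice.

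A further pair of start peaks lies in related genes. Ugt2b37 and Ugt2b38, neighbouring genes for UDP-glucuronosyltransferases that conjugate steroids and drugs, share a run of 16 bases within their first 30, shown in capitals.
Ugt2b37 (chr5:87254759-87254788, minus strand): AGGATTTTGATTTTCAggatgcctggaaag
Ugt2b38 (chr5:87424174-87424203, minus strand): ggactgtgaagagaAGGATTTTGATTTTCA

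Reads of closely related genes may have been divided between them in ways the deposited counts do not show, and values in gene families such as Ugt2b, Cyp2j, Acsm, Slc22a and the histones are uncertain to that extent. How alike the sequences of these families are was not compared beyond the pair shown. Counts do not separate strands in a way that is stated, so for the 45 members (3.59%) that lie under a coding gene of the opposite strand the gene of origin cannot be told apart. Among the members, 12 overlapped another member on their own strand and 10 overlapped one on the opposite strand, as at Fignl2 and at Slc22a12 with Nrxn2, and these share reads.

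Depth set what could be seen. The 11 IP libraries held 7577171 to 10293757 reads in all peaks and the 11 RNA-seq libraries 3151035 to 3352535. These totals sum all 9857 peaks, so reads under overlapping peaks of both lists are counted in each. Members took 1.90% to 1.98% of the IP reads in db/m mice and 1.46% to 1.68% in db/db mice, and 2.79% to 3.07% and 2.29% to 2.58% of the RNA-seq reads. Members have no db/db-list counterpart, so these shares would be higher if each read were counted once. The proximal tubule markers with a peak (Lrp2, Slc34a1, Slc5a2 and Aqp1, 4 of 7) summed to 1996 to 2415 RNA-seq CPM in db/m mice and 1062 to 2358 in db/db mice, with the highest db/db value in animal 6 and the next at 1829. Cubn, Miox and Kap of that list had no peak. The sum includes 2 members, both in Lrp2, with RNA-seq means of 614 and 329 CPM in db/m and 330 and 175 CPM in db/db mice. Where both lists hold overlapping peaks of a marker, both enter its sum. Principal cell markers of the collecting duct with a peak (Aqp2 and Aqp3, 2 of 3) went the other way, with 139.9 to 249.9 CPM in db/m mice and 210.5 to 361 in db/db mice, 5 of 6 of them above every db/m mouse. Loop of Henle markers (1 of 2) summed to 380 to 670 CPM in db/m and 264 to 660 in db/db mice. In the same order, distal tubule markers (1 of 3) held 116 to 181 and 78.1 to 224, and intercalated cell markers (1 of 3) 789 to 1175.5 and 795 to 1265.5. Podocyte markers (4 of 5) held 77.6 to 90.6 and 73.4 to 138, and endothelial markers (3 of 5) 84.7 to 110 and 66.7 to 109. Adipocyte markers (2 of 9 with a peak) summed to at most 0.316 CPM, fibroblast markers (1 of 4) to at most 0.321, lung markers (5 of 6) to at most 1.27, and no lymphocyte marker (0 of 3) had a peak.

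The members fell into a group with very few reads and a group with many. Averaged over the 11 IP libraries, 667 members (53.2%) held under 10 reads and 189 of these under 1, and 27 had no IP read in any db/m library, whereas 586 held 10 or more, 342 held 100 or more and 30 held 1000 or more. Among the 1871 short peaks shared with the db/db list, 9.51% held under 10 reads, and among the 1234 peaks only in the db/db list 61.6% did. Members had a median length of 121 bases against 211 for shared peaks. Lengths came in steps, with 1075 members (85.8%) within 1 base of a multiple of 30 and 293 members at 59 to 61 bases. The authors' fold enrichment had a median of 5.93 over members and 4.84 over shared peaks, and identical values recurred, 7.12 in 190 members and 9.5 in 98. The authors' FDR for the peak itself was above 0.05 in 430 members (34.3%) and in 77 shared peaks (4.12%).

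**Figure D1:**
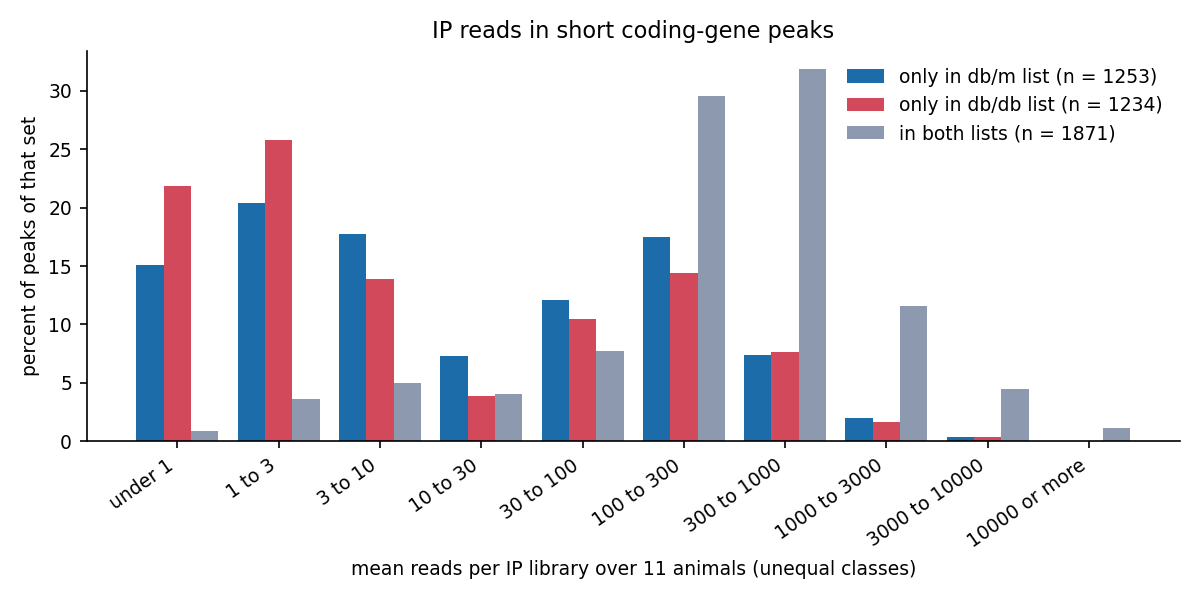
Bars give the percent of peaks (vertical axis) in each class of mean reads per IP library over 11 mice (horizontal axis, unequal classes), for short coding-gene peaks only in the db/m list, only in the db/db list and in both lists. The peaks found in 1 list pile up below 10 reads, where 53.2% of the db/m-only and 61.6% of the db/db-only peaks lie against 9.51% of the shared peaks.

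Among the better-measured members, the lowest db/db values relative to db/m belonged to transporters of organic anions. Slc22a7 encodes an organic anion transporter of the tubule, and its peak at chr17:46432484-46433093 on the minus strand lies in the last 10% of the gene, 604 bases from its end as measured from the peak's centre. It held 346, 189, 208, 293 and 244 IP CPM in db/m mice 1 to 5 and 0.782 to 4.32 (median 1.39) over the 6 db/db mice, so every db/m mouse stood far above every db/db mouse. The IP log2 change (db/db over db/m) was -6.95 (SE 0.37). In RNA-seq the same bases held 403 ± 74.6 CPM in db/m and 3.51 ± 2.78 CPM in db/db mice, a log2 change of -6.82 (SE 0.31).

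Slco1a1, another organic anion transporter, had its peak at chr6:141907729-141907849 on the minus strand, also in the last 10% of the gene. It held 186, 247, 209, 206 and 264 IP CPM in db/m mice and 0.223 to 15.95 (median 4.16) in db/db mice, with the highest db/db value in animal 6 and the next at 5.73. The IP log2 change was -5.42 (SE 0.57) and moved to -6.18 without animal 6. Slc22a26, of the same family as Slc22a7, had a peak with fewer reads at chr19:7781875-7782024 on the minus strand with 6.92, 9.43, 9.77, 10.8 and 10.1 IP CPM in db/m mice and 0 to 0.926 (median 0.118) in db/db mice. Its IP log2 change was -5.21 (SE 0.66), or -6.44 without animal 6, and its genotypes did not overlap. RNA-seq changes were -5.57 (SE 0.66) for Slco1a1 and -4.91 (SE 0.43) for Slc22a26. Less RNA per cell and fewer cells of a type cannot be told apart in such bulk tissue. The proximal tubule marker sums given above were lower in 5 of 6 db/db mice than in any db/m mouse. They include the 2 members in Lrp2, which were chosen from these same libraries. These members held 331 and 223 RNA-seq CPM in db/db animal 1. In db/m animal 2, which had the lowest db/m sum, they held 725 and 250. The place of db/db animal 1 below the db/m mice therefore rests on these members. Sums of principal cell markers were higher in 5 of 6. Sums of loop of Henle, distal tubule, intercalated cell, podocyte and endothelial markers, also given above, overlapped between the genotypes. The part of these cell types in the values was not tested.

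Slc7a13, a carrier for acidic amino acids and cystine in the proximal straight tubule, held 2 members, and neither had a db/db-list peak in the gene. The first described, at chr4:19841951-19842159 on the plus strand, lay 158 bases from the gene's end and held 429, 323, 389, 534 and 399 IP CPM in db/m mice against 3.13 to 112 (median 13.1) in db/db mice. Animal 6 alone set the upper end, since the next db/db value was 18.5. The IP log2 change was -3.89 (SE 0.63) and -5.20 without that animal. The other, at chr4:19819260-19819379 on the plus strand, changed by -3.30 (SE 0.61), and without animal 6 by -4.78. RNA-seq reads changed by -3.61 (SE 0.63) and -3.62 (SE 0.57) over the same peaks.

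Of 11 members in genes of steroid and drug metabolism, 3 were called lower in db/db mice under the rule given below and the others were not called. The share called lower was 1.72% over all peaks and 3.75% over all members. The list was drawn up with results of these data known, and the choice of members favours this direction. Cyp2j13, a cytochrome P450 of the arachidonic acid epoxygenase subfamily, had a peak at chr4:96045307-96045516 on the minus strand with 338, 332, 359.7, 367 and 350.4 IP CPM in db/m mice, a narrow range, and 14.7 to 109.6 (median 17.2) in db/db mice. The log2 change was -3.33 (SE 0.44) in IP and -3.17 (SE 0.42) in RNA-seq, and the IP value moved to -4.11 without animal 6, whose 109.6 CPM lay above the next db/db value of 34.7. The Ugt2b38 start peak, whose sequence is shown above, held 177, 317, 229.5, 286 and 282 IP CPM in db/m and 7.26 to 65.4 (median 17.1) in db/db mice, a log2 change of -3.27 (SE 0.40). The Ugt2b37 start peak held 65.9, 81.2, 73.9, 60.9 and 76.4 and 1.34 to 9.37 (median 3.76), a change of -4.05 (SE 0.33). No db/db mouse reached any db/m mouse in these 3 peaks, a separation seen in 2.99% of all 9857 peaks. RNA-seq changes were -3.43 (SE 0.35) and -3.57 (SE 0.43) for the Ugt2b genes. A peak of Ugt3a1, another glucuronosyltransferase-family gene, changed by -0.90 (SE 0.28) in IP and -1.21 (SE 0.17) in RNA-seq.

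The Acsm genes encode mitochondrial medium-chain acyl-CoA synthetases, and 3 of them are described here for members with non-overlapping genotypes. Every db/m mouse lay above every db/db mouse in 2.99% of all 9857 peaks. Acsm5 also held a member, which was not called in IP under the rule given below. The Acsm3 peak, at chr7:119784302-119784451 on the plus strand, held 226, 174, 189, 240.4 and 239 IP CPM in db/m mice and 4.203 to 19.6 (median 13.5) in db/db mice, a log2 change of -4.02 (SE 0.29). It lies under Eri2 on the other strand, and reads of these genes cannot be told apart. Acsm2 held 239 ± 40.05 CPM in db/m and 62.5 ± 19.9 CPM in db/db mice and changed by -1.93 (SE 0.20). Acsm1 held 281 ± 36.3 CPM in db/m and 107 ± 30.9 CPM in db/db mice and changed by -1.39 (SE 0.20). In contrast to the peaks above, animal 6 was not the highest db/db mouse for Acsm3 or Acsm1. The gene of Acsm2 also held db/db-list peaks, and these changed like the member, by -1.89 (SE 0.23) and -1.83 (SE 0.21).

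Other members with low db/db values came from varied genes, some of them picked for naming after their values were seen. Odc1, the enzyme that begins polyamine synthesis, held 96.9, 239, 147, 137 and 219 IP CPM in db/m and 9.06 to 40.04 (median 16.5) in db/db mice, a log2 change of -3.08 (SE 0.32). Cndp2, a cytosolic dipeptidase, held 402, 240.1, 354, 416 and 492 and 36.7 to 89.5 (median 54.3), a change of -2.75 (SE 0.23), while a longer db/db-list peak in the same gene changed by -1.64 (SE 0.16). Cckar, the cholecystokinin A receptor, changed by -2.14 (SE 0.44), and by -2.76 without animal 6. Serpinf2, the plasmin inhibitor, changed by -2.56 (SE 0.47). Azgp1, a secreted zinc-binding glycoprotein, changed by -1.74 (SE 0.24), and Prok1, a secreted prokineticin, by -2.07 (SE 0.38). Chd3, a chromatin remodeller, held 2 members that changed by -1.30 (SE 0.25) and -1.70 (SE 0.28). Smaller differences were seen for Lrrk2, a kinase of the lysosomal system, at -1.36 (SE 0.29), for Cbs, which makes cystathionine, at -1.18 (SE 0.23), and for Mvd, of cholesterol synthesis, at -1.24 (SE 0.25). All of these except Cbs were also called lower in RNA-seq under the rule given below.

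Members with higher IP reads in db/db mice were fewer, although they were chosen for a peak in db/m mice. Pck1, the cytosolic phosphoenolpyruvate carboxykinase that commits carbon to glucose synthesis, had a member at chr2:173155269-173155991 on the plus strand. It held 157, 137, 169, 116 and 163 IP CPM in db/m mice and 246 to 822 (median 544) in db/db mice, with no overlap, and the log2 change was 1.79 (SE 0.27) in IP and 1.87 (SE 0.26) in RNA-seq. A peak near the end of Pck1, present in both lists, changed by 1.83 (SE 0.28), so that a peak without a db/db-list counterpart can hold more IP reads in db/db mice. G6pc, which releases free glucose in the last step of the same pathway, held 411, 282, 319, 271 and 303 and 266 to 914 (median 503) IP CPM, with overlap and a log2 change of 0.80 (SE 0.23). Glud1, glutamate dehydrogenase, changed by 1.18 (SE 0.24), and Tubb2b, a beta-tubulin, by 1.30 (SE 0.23) without overlap.

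Some higher members, named after their values were seen except for Hoxd11 and C530008M17Rik, rested on few reads or few mice. Saa3, an acute-phase serum amyloid A gene, had 5 IP reads over all db/m mice and 494 over all db/db mice. Its db/db values ran from 0.103 to 51.5 (median 1.53) CPM, the highest in animal 3 and the next at 3.75. The macrophage marker with a peak, C1qa (1 of 7), was also highest in animal 3, at 36.0 RNA-seq CPM against 3.48 to 17.9 in the other db/db mice and 5.07 to 15.3 in db/m mice, and its part was not tested. Without animal 3 the Saa3 call was lost. Maff, a small basic leucine zipper factor, and Hcn3, a pacemaker channel, each had 17 IP reads in all db/m mice against 241 and 285 in all db/db mice, and the calls of both were lost without any of several single mice. Fbxo2, an F-box protein for glycoproteins, held 2 members. The called member changed by 3.57 (SE 0.61), and the other, at chr4:148160651-148160711, by 1.79 (SE 0.65) without a call. Hoxd11, a homeobox gene of kidney development, held 0.102, 0.636, 0.439, 0.218 and 0.223 and 1.13 to 3.38 (median 1.81) IP CPM, and C530008M17Rik 0.407, 0.636, 0, 0.109 and 0 and 0.918 to 6.59 (median 2.53). Wsb1 changed by 1.89 (SE 0.36), Tsc22d1 by 2.0 (SE 0.47), and Sfn, the 14-3-3 sigma protein, by 1.49 (SE 0.37), with overlapping genotypes in all 3, and the call of Sfn was lost when db/db animal 5 or db/m animal 4 was left out. C530008M17Rik lost its call if db/m animal 4 or any of db/db animals 1, 2 and 6 was left out, and Hoxd11 was not called.

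Members with the highest CPM, a level that is not scaled by peak length, were mostly not those with the largest differences. The highest was labelled Gpr89, at chr3:96868908-96869117 on the minus strand, and held 1361, 919, 1456, 1284 and 1300 IP CPM in db/m mice and 382 to 1459 (median 629.8) in db/db mice. It lies under Pdzk1, a scaffold of brush-border transporters on the other strand, so its reads cannot be assigned. Its log2 change was -0.82 (SE 0.25), and -1.14 without animal 6, at which it passed the call. Calr, the endoplasmic reticulum chaperone calreticulin, held 385, 387, 416, 427 and 383 and 215 to 374 (median 246) IP CPM, a change of -0.56 (SE 0.15), and a db/db-list peak with 318 bases between changed by -0.54 (SE 0.17). Lrp2 (megalin), the endocytic receptor of the proximal tubule, held 310.4, 271, 312, 302 and 289 and 79.9 to 282 (median 159), a change of -0.86 (SE 0.22), and -1.06 without animal 6, at which it was called. The other Lrp2 member, at chr2:69436644-69437532, changed by -0.92 (SE 0.19) without overlap of the genotypes. Animal 6 held 249 CPM there, below every db/m mouse. Eef2, the translation elongation factor, held 322, 297, 251, 335 and 316 and 279.6 to 409 (median 369), a change of 0.24 (SE 0.13) with overlap. Nat10 itself held a member, with 25.3, 23.96, 38., 17.2 and 28.5 and 13.5 to 31.1 (median 18.6) IP CPM and changes of -0.40 (SE 0.26) in IP and -0.14 (SE 0.13) in RNA-seq. Igfbp5, a binding protein of insulin-like growth factors, held 41.98 ± 6.02 CPM in db/m and 38.4 ± 13.1 CPM in db/db mice, a change of -0.13 (SE 0.22).

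**Figure D2:**
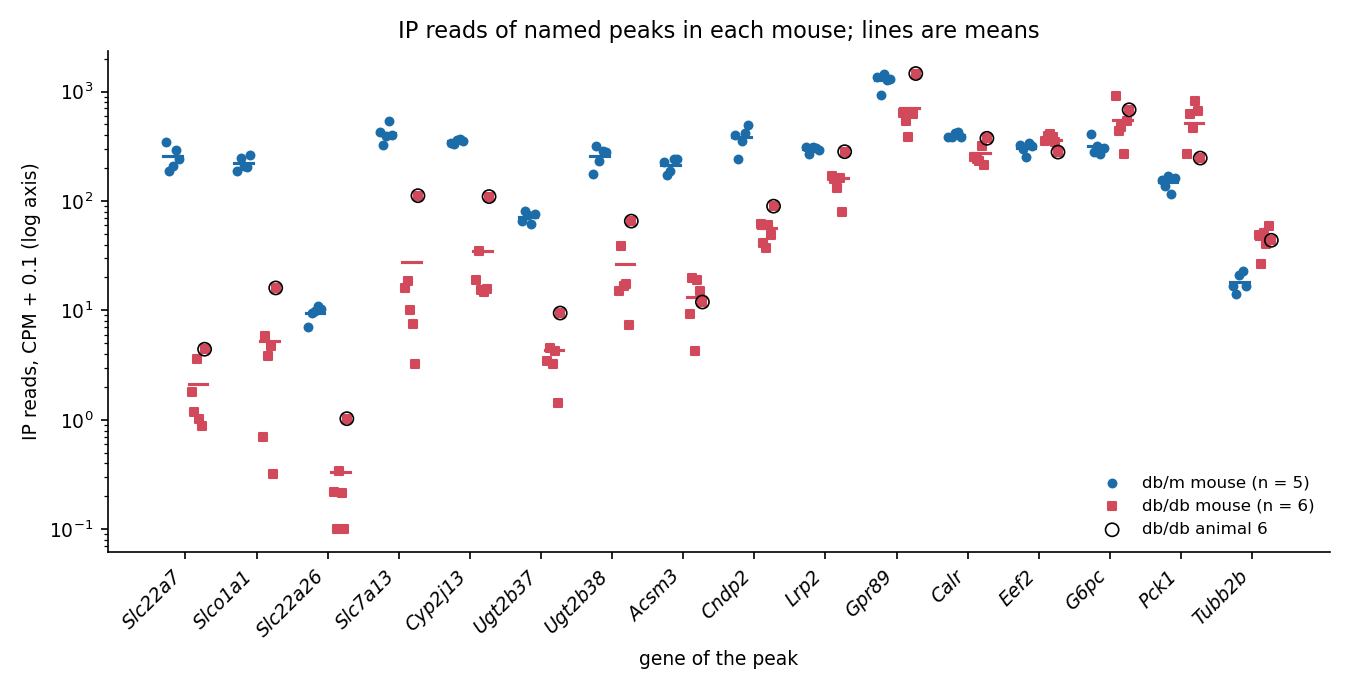
Each point is the IP level of a peak in 1 mouse, as CPM plus 0.1 on a log axis, for 16 named members (horizontal axis). Circles are 5 db/m mice, squares 6 db/db mice, lines the means, and rings mark db/db animal 6, which lies nearest to the db/m mice for Slco1a1, Slc22a26, Slc7a13, Cyp2j13 and both Ugt2b peaks, at the level of the db/m mice for Gpr89 and the Lrp2 peak shown, and lowest of the db/db mice for Pck1 and Eef2. The other Lrp2 member, in which animal 6 lay below every db/m mouse, is not shown.

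Counts over all members were read against the same counts over all peaks. In the fit over all 9857 peaks a peak was called at an adjusted p under 0.05 (edgeR quasi-likelihood test, Benjamini-Hochberg) and a log2 change beyond 1. In IP, 47 members were called lower in db/db mice (3.75% of members), where the background over all peaks was 1.72%. Members called higher numbered 12 (0.958%), where the background was 1.59%. In RNA-seq, 38 members were called lower against a background of 1.97%, and 36 higher against 1.98%. Every db/m mouse lay above every db/db mouse in IP CPM for 54 members, with a background of 2.99%, and the reverse held for 5 members, with a background of 2.78%. Nothing is read from these counts, since the choice of members used the same libraries. Animal 6 weighed on them. Without it 58 members were called lower and 14 higher in IP, with backgrounds of 2.2% and 1.97%, and 50 and 42 in RNA-seq, with backgrounds of 2.55% and 2.32%. Among the 47 lower members, animal 6 was the highest db/db mouse in 26, and among the 12 higher members it was the lowest in 6.

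The IP and RNA-seq reads of called members mostly had differences of the same sign. Of the 59 called members, in 57 genes, 57 had the same sign in RNA-seq and 41 were also called there, 30 of the 47 lower and 11 of the 12 higher. The others were Ccdc183, whose counts are given further on, and Erich3, with 105 IP reads in all db/m and 8 in all db/db mice and 3 and 4 RNA-seq reads, too few in RNA-seq for a sign to be read. Over the 48 called members with a mean of 10 or more RNA-seq reads, the median absolute IP change was 1.56 and the median change of IP relative to RNA-seq, in the direction of IP, 0.13 on the log2 scale. Some called members, picked after their values were seen, had smaller RNA-seq differences. Amz1, a zinc peptidase, changed by -2.09 (SE 0.41) in IP and -0.96 (SE 0.40) in RNA-seq, Atxn7 by -1.74 (SE 0.51) and -0.04 (SE 0.64), and Actl6a, a subunit of chromatin remodellers, by -1.10 (SE 0.28) and -0.42 (SE 0.19). The calls of Erich3, Atxn7 and Actl6a were each lost without any of several single mice.

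**Figure D3:**
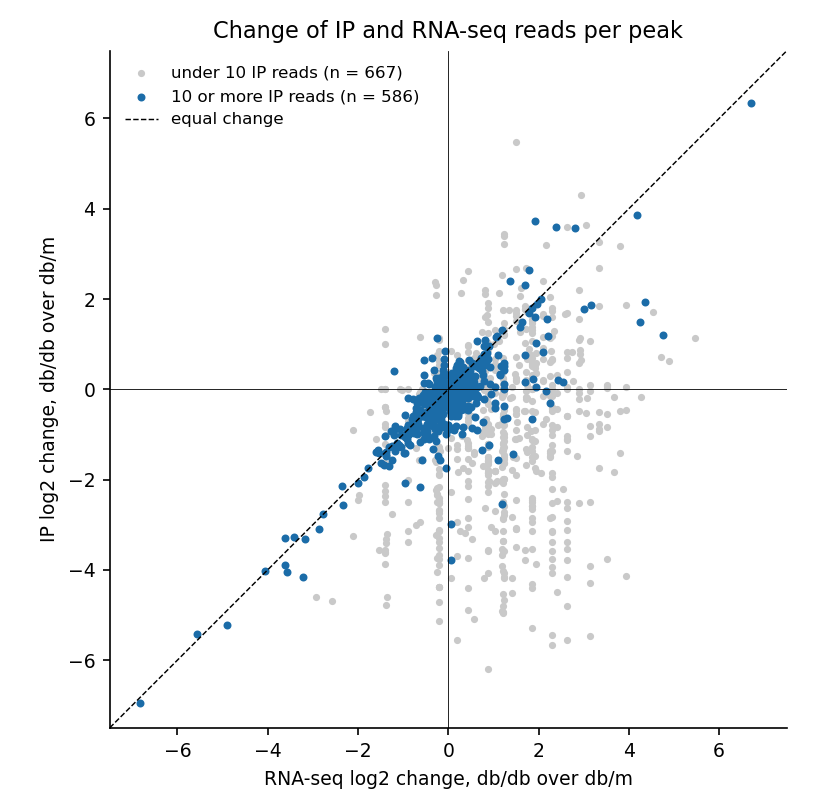
Each point is a member, with its RNA-seq log2 change on the horizontal axis and its IP log2 change on the vertical axis (db/db over db/m), and the dashed line marks equal change. The 586 members with 10 or more IP reads lie mostly along the line, with Slc22a7 lowest at -6.82 and -6.95, whereas the 667 with fewer reads spread below it and to the right of 0.

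IP reads relative to RNA-seq reads gave no called member. In the fit over all 22 libraries with a term for each animal (edgeR, adjusted p under 0.05 and log2 change beyond 1), 0 of 1253 members were called, against a background of 0.0203%, which is 2 peaks of 9857. DESeq2 was not run on this comparison. At an unadjusted p under 0.05 and the same fold, 68 members were lower and 1 higher, with backgrounds of 1.18% and 1.21%, and of the 1234 peaks only in the db/db list 2 were lower and 72 higher. Without db/db animal 6, 2 members were called, with a background of 0.0507%, Golim4 at -1.11 and Slco1a1 at 1.21. The lowest relative values among members with 10 or more RNA-seq reads in each genotype are therefore values only. Dctn2, a subunit of the dynactin complex, held 8.54, 10.4, 11.9, 11.3 and 19.2 IP CPM at its start peak in db/m mice and 2.596 to 6.59 (median 4.2) in db/db mice. Its RNA-seq reads were 9.33 ± 1.05 CPM in db/m and 8.02 ± 1.73 CPM in db/db mice, and the relative log2 change was -1.21 (SE 0.35). A peak in both lists further along the gene changed by 0.08 (SE 0.14) in IP.

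Gng12, a G-protein gamma subunit, had a relative change of -1.11 (SE 0.37), with 12.8, 21.3, 14.6, 18.4 and 13.9 IP CPM in db/m and 3.29 to 14.4 (median 8.03) in db/db mice. Golim4, a Golgi membrane protein, had -0.95 (SE 0.26), and its db/m IP values of 19.02, 65.9, 37.2, 21.9 and 18.6 were led by animal 2. Parp1, the DNA damage-sensing polymerase, had -0.95 (SE 0.33), and Cdc34, a ubiquitin-conjugating enzyme, -0.96 (SE 0.39). Stat6, a transcription factor of interleukin signalling, had -1.15 (SE 0.86) and no IP read in 2 db/m and 4 db/db mice. High relative values were 1.46 (SE 0.52) for Zmynd11, a chromatin reader, 0.63 (SE 0.39) for Isy1, a spliceosome protein, and 0.51 (SE 0.33) for Ppp1r1b, a phosphatase inhibitor.

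Enrichment was taken per mouse as log2 of IP CPM plus 1 over RNA-seq CPM plus 1. CPM counts only reads in peaks, so 0 stands for the share a peak would have with no gain over the other peaks, not for an absence of pull-down. Over the 444 members with a mean of 10 or more RNA-seq reads, the median per mouse was -0.27 ± 0.02 in db/m mice (SD, n = 5, range -0.29 to -0.25) and -0.42 ± 0.03 in db/db mice (n = 6, range -0.45 to -0.37). Over 1520 shared peaks at the same depth the medians were 0.09 ± 0.02 and 0.12 ± 0.02, and over 391 peaks only in the db/db list they were -0.52 ± 0.05 and -0.29 ± 0.04. Peaks found in 1 list had the higher median in the genotype of that list, which the choice of peaks favours, and stood below shared peaks in both genotypes. Over all 1253 members the median per mouse was 0 in 4 of 5 db/m and in 5 of 6 db/db mice, and where each member was first averaged over the mice of a genotype, the median over members was 0.13 in db/m and -0.07 in db/db mice.

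**Figure D4:**
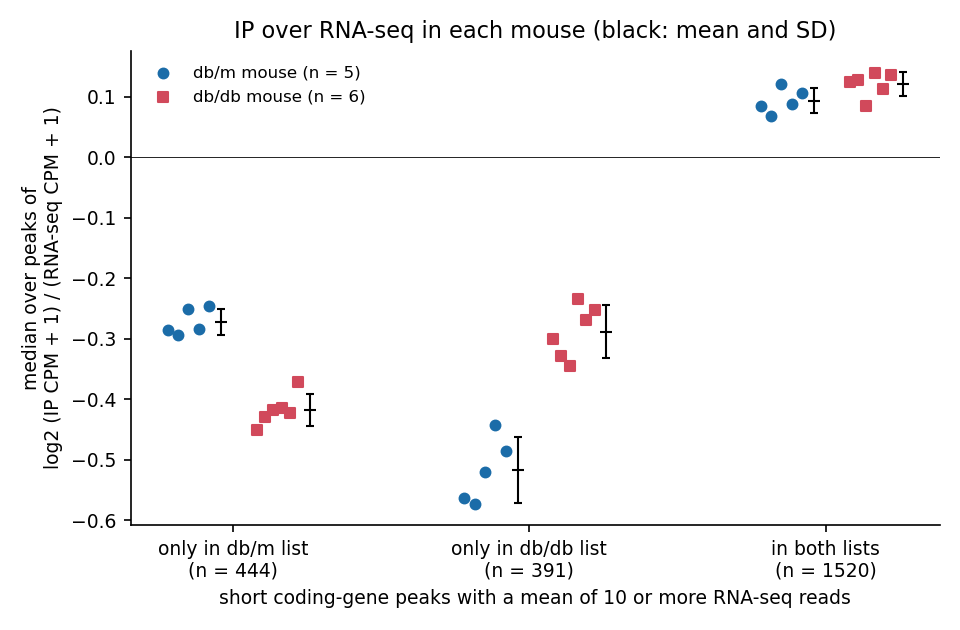
Points are mice, and the vertical axis is the median over peaks of log2 (IP CPM + 1) / (RNA-seq CPM + 1), for short coding-gene peaks with a mean of 10 or more RNA-seq reads in the 3 sets on the horizontal axis. Black marks give the mean and SD of 5 db/m and 6 db/db mice, and peaks only in the db/m list lie at -0.27 in db/m and -0.42 in db/db mice, both below the shared peaks at 0.09 and 0.12.

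For the 667 members with under 10 IP reads, few reads in the unselected RNA of db/m mice went with the peak. Summed over 5 db/m RNA-seq libraries, 196 of these members had 0 reads and 238 had 1, with a median of 1, while the median sum over 6 db/db RNA-seq libraries was 4. The whole set drew 281 to 361 RNA-seq reads per db/m mouse and 578 to 901 per db/db mouse. In IP it drew 1776 to 3445 reads per db/m mouse, the most in animal 2, and 1226 to 1672 per db/db mouse. Of the 5 db/m IP libraries, 1 held 50% or more of their reads in 481 of the 640 members that had any db/m IP read. In 222 of the 667 the mean IP CPM of db/db mice was equal to or above that of db/m mice. Levels of these members ordered less alike between mice than those of members with 10 or more reads. The median rank correlation between IP libraries was 0.15 against 0.94 in db/m and 0.27 against 0.85 in db/db mice. Between RNA-seq libraries it was 0.22 against 0.98 in db/m and 0.27 against 0.96 in db/db mice. These are descriptions over 667 and 586 peaks of the same libraries.

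Some of these sparse members, picked after their values were seen, show the counts. Ccdc183 had 58 IP reads in all db/m mice and 1 in all db/db mice, with 0 and 2 RNA-seq reads. Hhatl, under Klhl40 on the other strand, had 40 and 1 IP reads, and Kcnh1, a potassium channel, 36 and 1, led by the highest db/m value of 2.76 CPM. These 3 were called lower in IP, and the calls of Hhatl and Kcnh1 were lost without any of several single mice. With 1 read in a group, no fold is given for these 3. RNA-seq calls in the other direction also came from such peaks. Map4, Tbc1d9, Sphk1 and Fyn had 0 RNA-seq reads over all db/m mice and 9, 10, 8 and 8 over all db/db mice, while their IP reads were 17 and 5, 13 and 5, 25 and 29, and 33 and 42. Pdk4, a kinase that holds back pyruvate oxidation, had 1 RNA-seq read in db/m and 52 in db/db mice, with 12 and 23 IP reads.

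The RNA-seq median over members depended on these peaks. Over all 1253 members the median log2 change was -0.34 in IP, 0.35 in RNA-seq and -0.61 in IP relative to RNA-seq, beside 0.00, -0.01 and 0.02 over all 9857 peaks. Over the 1234 peaks only in the db/db list the medians were 0.55, -0.26 and 0.72, each of the opposite sign. Mean reads per RNA-seq library in those peaks had medians of 1 in db/m and 0.33 in db/db mice, against 0.6 and 1.67 in members. Over the 586 members with 10 or more IP reads the medians were -0.21, -0.04 and -0.15, so the RNA-seq value turned its sign. In the 667 others they were -0.78, 1.20 and -2.06.

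By gene group, transporters and lipid or steroid enzymes held 11 of the 47 lower calls, in lists that were drawn up with results of these data known. The share called lower was 3.75% over all members and 1.72% over all peaks. Of 34 members in 31 solute carrier genes, 5 were called lower in IP (Slc22a7, Slco1a1, Slc22a26 and 2 of Slc7a13) and 0 higher, and their median IP log2 change was -0.31, beside -0.21 over all 154 peaks of these genes in the table. Slc22a12, the urate exchanger, changed by -0.81 (SE 0.21) in IP and -1.19 (SE 0.13) in RNA-seq, where it was called. Slc12a1, the sodium, potassium and chloride cotransporter of the loop of Henle, changed by 0.06 (SE 0.21). Of 11 members in xenobiotic and steroid metabolism 3 were called lower (Cyp2j13, Ugt2b37 and Ugt2b38), and of 11 in fatty acid and lipid handling also 3 (Acsm1, Acsm2 and Acsm3), with none higher in either. Median IP log2 changes were -0.59 and -0.31 over the members of these lists, 0.21 and -0.34 over all 81 and 56 peaks of the lists, and 0.00 over all peaks. The members of xenobiotic and steroid metabolism had a median of the opposite sign to that of all peaks of the list. The choice of members favours this direction, and the median over all 1253 members was -0.34.

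Other groups held few calls or none. At the adjusted threshold of these calls, 1.72% of all peaks were called lower and 1.59% higher in IP. Over all members the shares were 3.75% and 0.958%. In glucose metabolism and the citrate cycle 1 of 7 members was called higher (Pck1). Of 34 ubiquitin and proteasome members 2 were called lower (Trim7 and Rnf145) and 1 higher (Fbxo2), the first 2 lost without single mice. Of 16 members in chromatin regulators 2 were lower, both in Chd3, and of 15 in stress factors 1 was lower (Dnaja4, a chaperone, lost without db/m animal 5). Ion pumps and channels had 1 lower (Kcnh1) among 12, and cytoskeletal genes 1 higher (Tubb2b) among 15. No member was called in either direction in IP among 5 of the respiratory chain, 8 ribosomal proteins, 21 of matrix and integrins, 9 of immunity, 16 zinc finger proteins, 20 of RNA splicing and translation, 22 kinases and phosphatases, 20 of vesicle traffic, 9 of the NAT10 and senescence list, or the 1 circadian member, Rorb. At an unadjusted p under 0.05 and a log2 change beyond 1 (edgeR), 12 of these 131 members were lower and 1 higher, beside 171 and 27 of all 1253 members and backgrounds of 4.13% and 4.22%. Among these, Col4a2 changed by 0.25 (SE 0.32), Ddx5, an RNA helicase, by -0.05 (SE 0.16), and Ndufs1, of complex I, by -0.42 (SE 0.16). Within the stress list, Ddit3, a factor of the unfolded protein response, held 69.2, 47.9, 104, 82.6 and 57.8 and 74.5 to 283 (median 120.5) IP CPM, a change of 0.95 (SE 0.29), and Atf4 0.13 (SE 0.19). In these lists 285 members were placed, and 968 belonged to none.

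Within genes, members sat at the ends. Of 1190 members placed on a RefSeq gene, 313 (26.3%) had their centre in the first 10% of the gene, introns included, and 400 (33.6%) in the last 10%. The shares were 22% and 37% for shared short peaks and 22.8% and 40.3% for peaks only in the db/db list. Exon, intron and UTR membership was not analysed here.

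**Figure D5:**
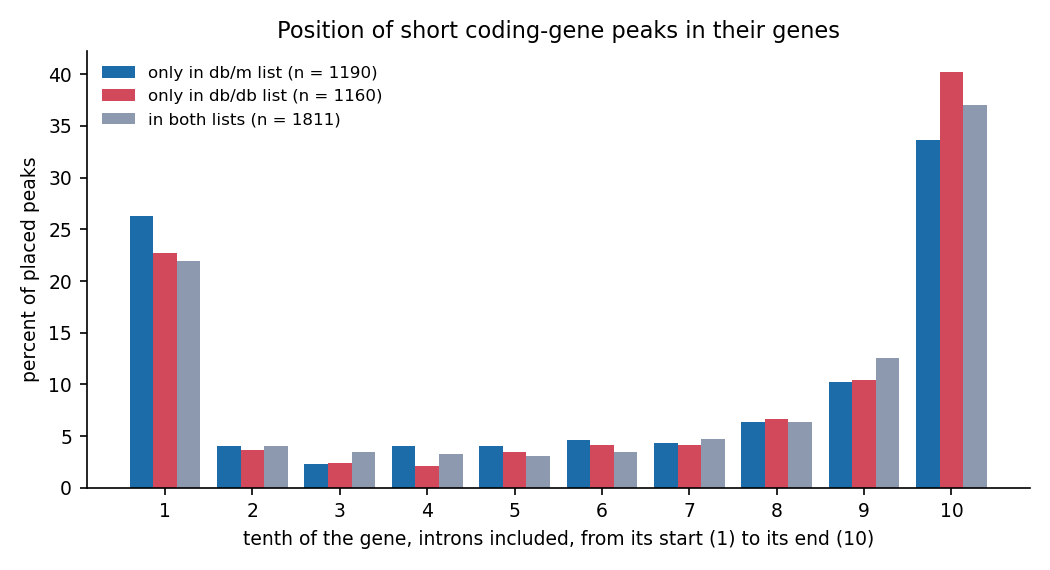
Bars give the percent of placed peaks (vertical axis) by the part of the gene, in steps of 10%, that holds the peak's centre, introns included, from gene start to gene end (horizontal axis), for the 3 sets of short coding-gene peaks. Members have 26.3% of their peaks at the start and 33.6% at the end, and each step between holds 10.3% or less.

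Some members were separated from a db/db-list peak by little. In 407 members (369 genes) the gene also held a db/db-list peak, and in 846 (799 genes) it held none. The gap to the nearest db/db-list peak on the strand was under 100 bases in 34 members, with 11 at 28 to 30 bases, and over 1000 bases in 1102. For 183 members with 10 or more IP reads, the same gene held a db/db-list peak of that depth. The median IP log2 change was -0.18 in these members and -0.03 in the db/db-list peaks, with the member lower in 128 of 183. In 6 members the difference went beyond 1 downward and in 6 upward. Rnf145, a ubiquitin ligase of the endoplasmic reticulum, is an example of a close pair, with 59 bases between the peaks, -1.02 (SE 0.25) at the member, and -0.52 (SE 0.22) at the db/db-list peak. Several members can share a gene. Of the 1168 genes, 78 held 2 members, 2 held 3 (Tchh and Thsd7a) and Fignl2 held 4, and in 30 genes with 2 or more members of 10 reads the median range of the IP log2 change was 0.22.

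At the edges of the rule, long members were Tsfm (989 bases, IP log2 change -0.61, SE 0.23) and Sesn2 (984 bases, 0.43, SE 0.34). The shortest peaks beyond the limit were Nek1 (1008 bases, -0.39, SE 0.39), Slc22a27 (1025 bases, -1.56, SE 1.26) and Epha7 (1035 bases, 31 IP reads in all db/m and 2 in all db/db mice). The members nearest to a db/db-list peak were Gm17190 (28 bases between, 5 and 2 IP reads), Evpl (29 bases, 0.58, SE 0.28) and Gtpbp6 (29 bases, -0.30, SE 1.0). The smallest overlaps that kept a peak out were 1 base, at Foxd1 (0.41, SE 0.70), Fxr2 (-0.07, SE 0.43) and Phf23 (0.87, SE 1.27).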

How the data were processed

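The authors enriched kidney mRNA with oligo(dT), fragmented it, pulled it down with an ac4C antibody (IP) and sequenced it beside RNA-seq libraries. Reads were aligned to GRCm38 per the labels, and the aligner, peak caller and counter are not given in the sources used here. The deposited table holds whole-number read counts per peak and library, not normalized. It also holds a linear ratio (fold enrichment of the peak) and a p-value and FDR for the peak from the authors' caller, of which the ratio and the FDR served here as descriptions. Peak names come from a db/m and a db/db list, so the authors called peaks per genotype and not per mouse. Columns of the authors' own genotype comparison (log2 difference, p and FDR) were not used. Extents are genomic and include introns, and starts were made 1-based.

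Counts of all 9857 peaks entered edgeR 4.0.16 (R 4.3.3) with TMM library sizes and its quasi-likelihood test, with IP and RNA-seq fitted separately and with no count filter. IP relative to RNA-seq was fitted over 22 libraries with animal, IP and the interaction of IP with genotype. P-values were adjusted by Benjamini-Hochberg over all peaks, and a call needed an adjusted p under 0.05 and a log2 change beyond 1. The standard error was the absolute log2 change over the square root of F. CPM are counts per 1000000 reads in peaks with TMM, and enrichment used a pseudocount of 1 CPM. On simulated counts with 200 of 9857 peaks changed by a log2 of 2, 199 were recovered in the IP fit, 199 in that of RNA-seq and 179 in the relative fit. False calls numbered 1, 5 and 4. The changed peaks were drawn only from peaks averaging 10 reads or more, and every peak had the same fixed dispersion. Recovery in sparser peaks, such as the 667 members with under 10 IP reads, was not simulated. DESeq2 1.42.0 and other settings were alternatives. Starts and names were matched to RefSeq (GRCm38.p6) by symbol and position, for 1190 members.

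The members, gene lists and marker lists were chosen with earlier results of these data known. Members named by rule, with 1 peak per gene, were the 8 with the highest db/m IP CPM, the 8 lowest and 6 highest IP log2 changes among members with 10 reads and non-overlapping genotypes, the 6 lowest and 4 highest relative changes among members with 10 RNA-seq reads in each genotype, up to 3 per gene list, and those at the edges of the selection. Other genes were named after their values were seen. Some items that this rule names are not reported here.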

Additional observations from a re-analysis of the deposited data

Results flagged for a closer look

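In 29 named members, 116 groups of 5 or 6 libraries were tested for a single value far from the others (Dixon's ratio at 95%), and 16 held one. Independent groups of normally distributed values would give about 5.8 by chance. These groups share mice and some members were named for large differences, so the 16 cannot be set against that figure. Of the 16, 9 were values of db/db animal 6. In IP these were 1459 CPM for Gpr89, 112 for Slc7a13, 109.6 for Cyp2j13, 16.0 for Slco1a1 and 0.926 for Slc22a26, each the highest of the db/db mice. In RNA-seq they were 2200.0 CPM for Gpr89, 106 for Slc7a13, 155 for Cyp2j13 and 56.1 for Slco1a1, again the highest of the db/db mice. The proximal tubule marker sum of that animal, 2358 RNA-seq CPM, lay within the db/m range of 1996 to 2415, and its part in these values was not tested.

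The other values concerned RNA-seq. Gpr89 stood at 1621 CPM in db/m animal 2, the lowest of its group, and Slc22a26 at 0.857 CPM in db/db animal 3. C530008M17Rik held 0.317 CPM in db/m animal 5 and no read in the other db/m mice. Cdc34 stood at 5.56 CPM in db/m animal 3. Zmynd11 stood at 11.3 CPM in db/m animal 2 and at 6.89 CPM in db/db animal 2, and Isy1 at 8.22 CPM in db/db animal 5.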

How the results depend on the processing

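Counts of members called in IP and counts of members called lower in RNA-seq stayed within 1.5 times of the values given under every setting tried. Keeping peaks with the authors' FDR at 0.05 or less left 823 members, with medians of -0.23 in IP, 0.085 in RNA-seq and -0.26 in relative change. Keeping peaks that averaged 10 reads or more gave medians of -0.20, -0.10 (the opposite sign) and -0.16, and 13 members were called higher in RNA-seq. Without TMM the medians were -0.25 in IP and 0.42 in RNA-seq, and with DESeq2 -0.38 and 0.30. A pseudocount of 0.5 CPM put the db/m enrichment at 0.21. Leaving out each mouse gave medians of -0.41 to -0.22 in IP, 0.23 to 0.38 in RNA-seq and -0.65 to -0.52 in relative change, 0 to 2 relative calls, and 62 to 93 members without overlap against 59 with all mice, where 6.31% to 8.92% of all peaks had none against 5.77% with all mice. The highest count of relative calls and the highest share and count without overlap came without db/db animal 6. With numbers as a replicate block (animals 1 to 5) the medians were -0.41 in IP and 0.32 in RNA-seq. The labels do not say whether equal numbers pair mice of the genotypes. Correlations of same-numbered deviations ran from -0.18 to 0.14 in IP and from -0.26 to 0.33 in RNA-seq. They were not set against those of differently numbered mice, so they cannot decide it. The causes of these shifts were not tested. Depth limits the 667 members with under 10 IP reads, of which 3 were called in IP.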
